A study of Mus musculus with 30 samples.

Results

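Whole ovaries of adult CD1 mice given di(2-ethylhexyl) phthalate (DEHP) at 200 ug/kg/day for 10 days were compared with ovaries of mice given 20 ug/kg/day for the same 10 days, both collected directly after the last dose (0 months). Each dose is represented by 3 RNA libraries, so the comparison uses 6 of the 30 libraries, chosen by their labelled agent and collection time alone. The other libraries come from a vehicle group and from 2 doses of diisononyl phthalate (DiNP, 20 and 100 ug/kg/day), with all 5 groups sampled at 0 months and again 3 months after dosing. The 3 vehicle libraries at 0 months are given below as the untreated level. CD1 is an outbred stock, all groups carried no labelled genetic change, and nothing in the labels ties the replicates of a group to separate mice. The p-values therefore reflect the spread among these libraries alone, which may be technical.

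DEHP is a plasticizer of polyvinyl chloride. In the body it is cleaved to its monoester, which activates peroxisome proliferator-activated receptors (PPARs), nuclear receptors that switch on genes of fatty acid handling. The ovary holds oocytes inside follicles, whose granulosa and theca cells make estradiol and androgens together, and corpora lutea, which form after ovulation, make progesterone from cholesterol and regress at the end of each estrous cycle. Expression is given as the deposited log2 of counts per 1e+06 reads (log2 CPM), so that a difference of 1 is a doubling. The CPM of a library did not sum to 1e+06. They summed to 907668 in DEHP 200 replicate 3 and to 1070988 in DEHP 200 replicate 2, so they are not plain shares of the counted reads.

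Markers of the labelled tissue were present. Each of the 25 oocyte, 21 granulosa cell, 14 theca cell and 20 luteal genes listed was above a mean of 0 log2 CPM, the limit below which genes were not tested. The lists were chosen with earlier results of these data known, so this is a description. All 19 macrophage, 16 endothelial and 11 smooth muscle markers listed passed the limit too. The 2 groups were not equally uniform. The median SD over the 3 libraries was 0.28 with DEHP 200, 0.16 with DEHP 20 and 0.16 in the vehicle libraries (log2 CPM, 14740 genes), and the SD was greater with DEHP 200 than with DEHP 20 in 73.1% of genes. Approximate depths, read from the smallest steps between values, were 31.6, 24.7 and 41.8 M reads (M, 1e+06) in DEHP 200 replicates 1, 2 and 3, and 29.7 to 32.5 M with DEHP 20. The lowest and the highest estimate of all 30 libraries were thus both in the DEHP 200 group. This ranking is uncertain, since only 9.47% of the low values of replicate 3 and 18.1% of those of replicate 2 fell on whole reads. Each depth was the best match among many tried, so part of these shares came from that choice. As the values are not plain shares of reads, the depths may not be totals of reads either.

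DEHP 200 replicate 3 stood apart. In it 47 genes lay at least 4-fold below the lowest of the other 14 libraries at 0 months, against 0 to 6 genes in any of those libraries. The 47 included 4 of the 20 luteal genes: Ptgfr, the receptor through which prostaglandin F2 alpha ends luteal life, Sfrp4, a secreted Wnt antagonist, Cyp11a1, which starts steroid synthesis in mitochondria, and Prlr, the prolactin receptor. Ptgfr was at 2.01 log2 CPM in this library and between 8.78 and 10.98 in the other 14. Wnt10b, a Wnt ligand with the widest gap of the 47, was at -1.74 against 5.52 to 8.08. Lipg, endothelial lipase, was at 3.28 against 8.28 to 10.13, and Abcb1b, a multidrug efflux pump, at 2.24 against 6.64 to 10.07. These genes were singled out after their values were seen. Only Cyp2e1, a cytochrome P450, lay as far above, at 5.48 against -0.27 to 3.45.

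**Figure D1:**
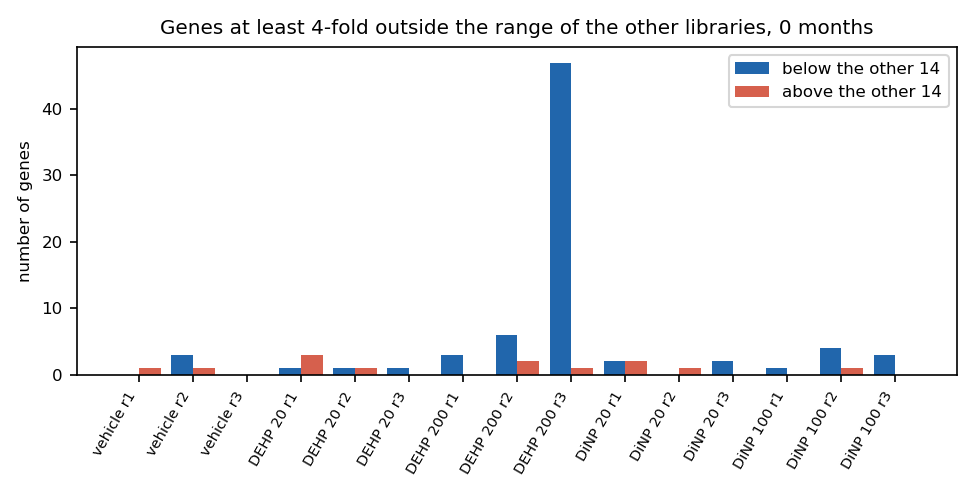
Number of genes (y axis) whose level in a library lay at least 4-fold below (blue) or above (red) the range of the other 14 libraries at 0 months, for each of the 15 libraries (x axis, r for replicate). DEHP 200 replicate 3 has 47 genes below, and no other library has more than 6.

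Across the 14740 genes tested, none differed between the doses at an adjusted p under 0.05 (limma, Benjamini-Hochberg), which is 0% called. Without adjustment 582 genes (3.95%) had a p under 0.05, 253 higher (1.72%) and 329 lower (2.23%) with DEHP 200, where 5% of the genes would be 737. The smallest adjusted p was 0.0666, for Foxa3, and the next was 0.945. In all, 6992 genes lay higher (47.4%) and 7748 lower (52.6%), with a median difference of -0.01. All 3 DEHP 200 libraries lay above all 3 DEHP 20 libraries in 599 genes (4.06%) and below them in 453 (3.07%). The count at p under 0.05 was 1527 without DEHP 200 replicate 1, which leaves replicates 2 and 3, and 138 with replicate 1 as the only DEHP 200 library.

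Foxa3, a forkhead transcription factor best known for opening liver and gut gene promoters, came nearest to a call. It lies on mouse chromosome 7 (GRCm38.p6, 19013283 to 19023539, minus strand). Its levels were 1.73, 1.38 and 1.77 log2 CPM with DEHP 200, 0.29, -0.23 and -0.12 with DEHP 20, and 0.56, 0.50 and 0.61 in the vehicle libraries. Every DEHP 200 library lay above every vehicle library, every DEHP 20 library lay below them, and no groups overlapped. The doses differed by 1.65 ± 0.28 (SE, n = 3 per group, 95% interval 1.08 to 2.22), which is 3.13-fold, with an adjusted p of 0.0666 (limma, Benjamini-Hochberg). The adjusted p was 0.0234 without the mean-dependent prior, 0.0254 with library weights and 0.996 when the 6 libraries were fitted alone. The library weights were uneven, from 0.005 to 35.131 over all 30 libraries. With 1 weight per group, added after seeing the data, the adjusted p was 0.791, and with the 0-month libraries alone 0.23. Leaving out 1 of the 6 libraries gave Foxa3 an adjusted p of 0.101 to 0.866 (limma, Benjamini-Hochberg). The 250 bases upstream of its start in the RefSeq table of GRCm38.p6 (chr7:19023540-19023789, minus strand) are shown because this is the gene that the comparison singles out. They hold no AAGGTCA on either strand, the element bound by the steroidogenic factors SF-1 and LRH-1:
Foxa3: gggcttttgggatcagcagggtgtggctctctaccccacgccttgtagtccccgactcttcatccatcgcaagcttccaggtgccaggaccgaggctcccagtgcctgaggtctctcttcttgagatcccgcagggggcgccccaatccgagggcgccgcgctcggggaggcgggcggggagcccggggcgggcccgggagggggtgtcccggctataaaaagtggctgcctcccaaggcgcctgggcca

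The other genes of smallest p that lay higher with DEHP 200 had differences from 0.38 to 2.05, each with an adjusted p of 0.945 (limma, Benjamini-Hochberg), and none of the 10 overlapped between the doses. Since genes of smallest p were picked from this comparison, the lack of overlap is a description. Pgf, placental growth factor, an angiogenic ligand, was at 0.95, 1.36 and 1.34 with DEHP 200 and 0.42, 0.33 and 0.22 with DEHP 20. Cadm3, a cell adhesion molecule, was at 2.29, 3.70 and 3.08 against 1.22, 0.35 and 1.35, a difference of 2.05 ± 0.53 (SE). Rspo1, a secreted Wnt potentiator that drives ovarian differentiation, was at 3.54, 3.72 and 4.20 against 2.61, 3.12 and 3.16. For Pgf the 3 DEHP 20 libraries were the low ones, with means of 0.93 in the vehicle group, 1.22 with DEHP 200 and 0.32 with DEHP 20. Gstz1, a glutathione transferase of tyrosine breakdown, was instead at 5.62, 5.50 and 5.66 with DEHP 200, 5.15, 5.28 and 5.22 with DEHP 20, and 5.12, 4.97 and 5.21 in the vehicle libraries, so that the DEHP 200 libraries were the high ones. The rest were Dmtn (0.83 ± 0.20, SE), an actin-bundling protein of the red cell membrane, Safb2 (0.40 ± 0.10), a corepressor of estrogen receptor alpha, Itga2b (0.92 ± 0.25), the platelet integrin alpha IIb, Kctd1 (0.56 ± 0.16), and BC051142 (1.65 ± 0.42). In 8 of the 10 genes the vehicle mean lay between the means of the doses. This too is a description, since the genes were picked for the gap between the doses.

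The 10 genes of smallest p on the lower side had differences from -2.49 to -0.61, each with an adjusted p of 0.945 (limma, Benjamini-Hochberg), and 8 of them did not overlap between the doses. Fndc3b, a fibronectin type III protein of the endoplasmic reticulum on chromosome 3 (27416135 to 27711307), was at 8.27, 7.64 and 7.68 with DEHP 200 and 8.85, 8.39 and 8.63 with DEHP 20, a difference of -0.76 ± 0.17 (SE). Adamts9, a protease that cleaves the proteoglycan versican, was at 6.51, 6.02 and 5.98 against 6.78, 6.69 and 6.87. Nos3, endothelial nitric oxide synthase, was at 4.38, 4.46 and 4.05 against 5.08, 4.75 and 5.16. In Fndc3b and Adamts9 DEHP 200 replicate 1 lay closest to the DEHP 20 libraries, while in Nos3 the 3 DEHP 200 libraries lay together. Dock5 (-0.72 ± 0.17, SE), an activator of the GTPase Rac, Dennd3 (-0.66 ± 0.19), an activator of Rab GTPases, Eml6 (-1.09 ± 0.32), a microtubule-associated protein, Scml4 (-1.01 ± 0.31), and Gm46271 (-1.45 ± 0.41) also did not overlap. Fbn1, fibrillin-1, did, since DEHP 200 replicate 1 was at 7.85 and the DEHP 20 libraries at 7.76, 8.01 and 7.81, and so did LOC547349 (-2.49 ± 0.78). The vehicle mean lay between the dose means in all 10, again in genes picked for the gap between the doses. All 20 differences kept their sign in every alternative in which the gene was tested. The genes were picked from these same libraries, so the kept signs are a description and no separate support.

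**Figure D2:**
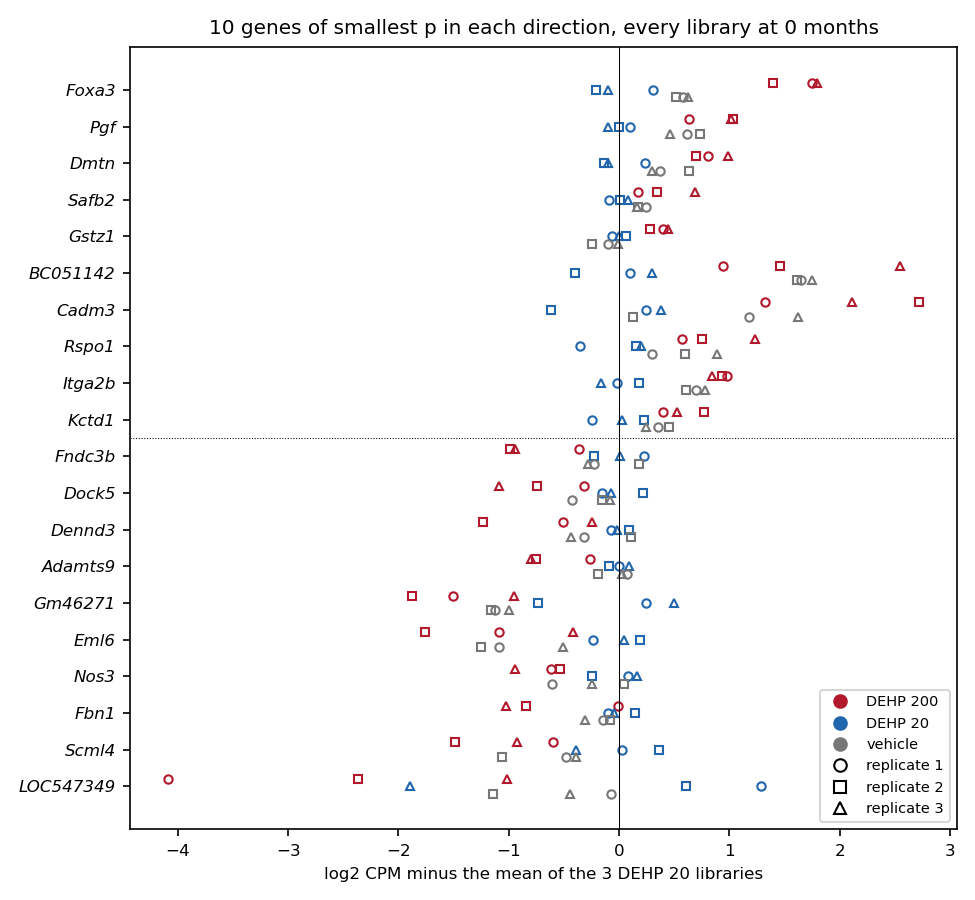
Levels of the 10 genes of smallest p in each direction (y axis) as log2 CPM minus the mean of the 3 DEHP 20 libraries (x axis), with a symbol for each library of DEHP 200 (red), DEHP 20 (blue) and vehicle (grey) and its shape for the replicate. The red symbols do not overlap the blue ones in 18 of the 20 genes, and Foxa3 shows the 3 groups apart.

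The same dose contrast was set against a later time and another phthalate, with which it shares no library. At 3 months 0 of 14740 genes differed between DEHP 200 and DEHP 20 at an adjusted p under 0.05 (0%), and 141 (0.957%) without adjustment. Between DiNP 100 and DiNP 20 at 0 months the counts were 0 (0%) and 86 (0.583%), at a high dose that is not the same as that of DEHP. Foxa3 differed by -0.02 ± 0.28 (SE) at 3 months and by -0.25 ± 0.28 for DiNP. Tested directly, the dose difference at 0 months exceeded that at 3 months by 1.66 ± 0.39 (SE) for Foxa3 and by 1.28 ± 0.28 (SE) for Pgf, which had the smallest p of that test, both with an adjusted p of 0.977 (limma, Benjamini-Hochberg). It exceeded that of DiNP by 1.89 ± 0.39 (SE) for Foxa3, the gene of smallest p there, with an adjusted p of 1 (limma, Benjamini-Hochberg). No gene passed either test at an adjusted p under 0.05, while 446 (3.03%) and 211 (1.43%) had an unadjusted p under 0.05 in limma. Of the 10 genes on the higher side, 3 lay higher at 3 months and 4 in DiNP, where 46.7% and 52.7% of all genes did. Of the 10 on the lower side 6 and 4 lay lower, where 53.3% and 47.3% of all genes did. Set against the vehicle, in 2 comparisons that share the vehicle libraries, Foxa3 differed by 1.07 with DEHP 200 and by -0.57 with DEHP 20. In these 0 genes were called by limma (0%), and 740 (5.02%) and 350 (2.37%) had an unadjusted p under 0.05.

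Gene groups are described next by their counts and medians, beside a median of -0.01 and 47.4% higher over all genes tested. In the other dose contrasts, 46.7% of all genes lay higher at 3 months and 52.7% for DiNP. No member of any group was called. Of the 22 groups, 17 had a median below 0 and 5 above. In whole ovaries, fewer cells of a type and less RNA per cell cannot be told apart.

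Progesterone synthesis and luteal genes varied more within the DEHP 200 group than between the doses. Their mean level was 8.50, 9.89 and 6.26 log2 CPM with DEHP 200, 9.38, 8.24 and 8.82 with DEHP 20, and 8.84 ± 0.18 (SD, n = 3) in the vehicle group. DEHP 200 replicate 2 was thus the highest and replicate 3 the lowest, with the DEHP 20 libraries in between. Of the 20 genes, 17 were lowest of the 6 libraries in replicate 3 and 12 were highest in replicate 2. Their summed level ran from 6143 to 50990 CPM with DEHP 200 and from 15550 to 33260 CPM with DEHP 20. The median difference was -0.41, with 16 genes lower, 4 higher and 0 at an unadjusted p under 0.05. It was 0.38 without replicate 3 of DEHP 200, -1.06 without replicate 2 of DEHP 200 and 0.05 without replicate 1 of DEHP 20, so that single libraries set its sign. In the other dose contrasts 14 of the 20 lay lower at 3 months (median -0.20) and 12 for DiNP (-0.18).

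Star, which carries cholesterol into mitochondria as the gated step of steroid synthesis, was at 9.37, 12.70 and 6.18 with DEHP 200 and 12.82, 7.95 and 10.62 with DEHP 20. Both groups reached from a low to a high library, and the difference was -1.05 with a 95% interval of -3.87 to 1.78. Akr1c18, which inactivates progesterone at luteal regression and was chosen after its values were seen, was at 7.28, 11.85 and -0.55 against 7.37, 4.94 and 9.42. Sfrp4 was at 9.15, 10.84 and 2.40 against 10.15, 8.91 and 10.01, and Hsd17b7, an enzyme of luteal estradiol and cholesterol synthesis, at 9.34, 9.54 and 5.12 against 10.36, 9.72 and 8.93. In both genes it was replicate 3 that lay low. Por, the electron donor of microsomal P450 enzymes, and Tspo, a mitochondrial cholesterol-binding protein, lay on the other side of 0, with differences of 0.29 ± 0.17 (SE) and 0.38 ± 0.47 (SE). Hsd3b1, which makes progesterone from pregnenolone, differed by -0.08 (95% interval -0.79 to 0.63). The intervals of the neighbouring steps were wider, with Cyp11a1 at -0.64 (-2.19 to 0.91) and Cyp17a1, which makes androgens, at 0.00 (-2.09 to 2.10).

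**Figure D3:**
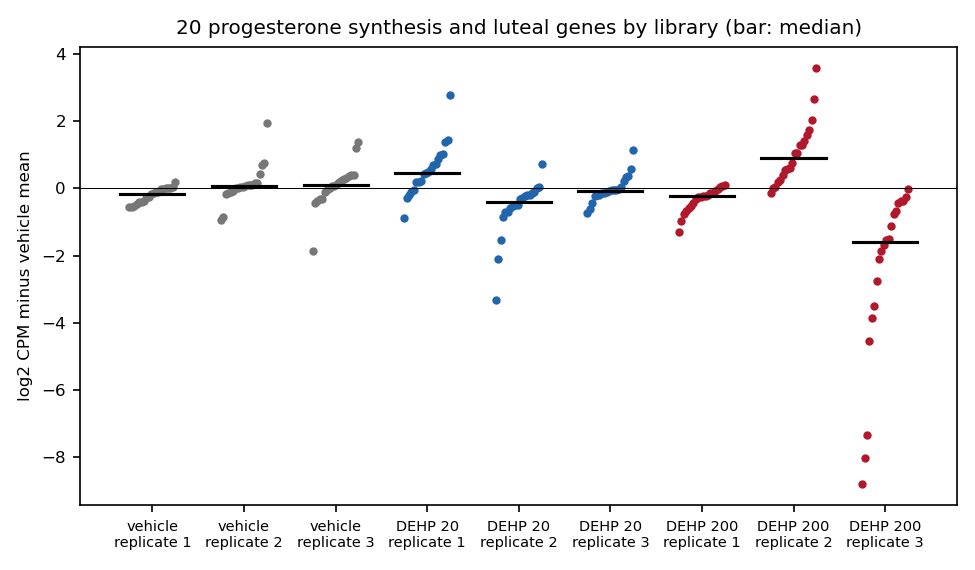
Levels of 20 progesterone synthesis and luteal genes in each of 9 libraries at 0 months (x axis), as log2 CPM minus the vehicle mean (y axis), 1 point per gene and a bar at the library's median. The points of DEHP 200 replicate 2 lie mostly above 0 and those of replicate 3 below it, with 17 of the 20 genes at their lowest of the 6 DEHP libraries there.

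Genes of cholesterol synthesis and uptake, which supply luteal steroid synthesis, followed the same libraries. Of 27 tested, 25 lay lower with DEHP 200, the median difference was -0.27 and 0 had an unadjusted p under 0.05. In the other dose contrasts 21 of the 27 lay lower at 3 months (median -0.14) and 20 for DiNP (-0.11). Replicate 3 of DEHP 200 was the lowest of the 6 libraries in 26 of the 27 genes, while the highest was DEHP 20 replicate 1 in 14 and DEHP 200 replicate 2 in 11. Dhcr7, the last enzyme of cholesterol synthesis, was at 6.72, 9.53 and 5.58 with DEHP 200 and 9.74, 6.47 and 7.27 with DEHP 20. The high library of each group was more than 2 log2 units above its neighbours in Dhcr7. Leaving out replicate 3 of DEHP 200 turned the median to 0.16, and leaving out replicate 1 of DEHP 20 turned it to 0.18. Lss and Idi1, earlier enzymes of the pathway, differed by -0.64 ± 0.67 and -0.70 ± 0.64 (SE), and Abcg1 and Insig1, a sterol exporter and a brake on the sterol sensor, by 0.21 ± 0.22 and 0.06 ± 0.43 (SE).

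Promoters of the luteal group were read for AAGGTCA, on either strand, in the 250 bases upstream of the start. It was found in 1 of 15 promoters of the group present in the RefSeq table (6.67%), in 333 of 11547 promoters of genes tested (2.88%) and in 1095 of all 27025 (4.05%). The promoter that holds it belongs to Hmgcs1, which makes the precursor of the sterol pathway and is listed in both groups (chr13:119690101-119690350 of GRCm38.p6, plus strand). It is printed to show where the element sits, in capitals and on the opposite strand:
Hmgcs1: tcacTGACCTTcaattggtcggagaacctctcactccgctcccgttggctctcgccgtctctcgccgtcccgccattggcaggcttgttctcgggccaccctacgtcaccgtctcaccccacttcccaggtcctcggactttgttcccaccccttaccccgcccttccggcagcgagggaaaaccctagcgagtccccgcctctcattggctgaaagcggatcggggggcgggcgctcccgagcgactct
Hmgcs1 itself was at 8.59, 10.12 and 7.85 with DEHP 200 and 10.23, 8.76 and 8.72 with DEHP 20, again with replicate 2 high and replicate 3 low. A match of these letters is a description of the sequence only.

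Granulosa cell genes were divided, with 9 of 21 higher, 12 lower and a median of -0.03. An unadjusted p under 0.05 was found for 2 (9.52%), Bmpr1b and Greb1, both lower. Over all genes 2.23% had such a p on the lower side. Bmpr1b, a receptor for oocyte and theca BMP signals, did not overlap: it was at 6.51, 5.69 and 6.55 with DEHP 200 and 6.90, 7.21 and 7.25 with DEHP 20, a difference of -0.87 ± 0.30 (SE) with an adjusted p of 0.945 (limma, Benjamini-Hochberg). Greb1, an estrogen-responsive gene, was at 9.54, 9.19 and 8.77 against 9.88, 9.72 and 9.50 (-0.54 ± 0.24, SE), with replicate 1 of DEHP 200 inside the DEHP 20 range. Slc18a2, a monoamine transporter, differed by -0.72 ± 0.43 (SE) and Amh, anti-Mullerian hormone of growing follicles, by -0.45 (95% interval -1.23 to 0.34). On the other side, Nppc, whose product holds oocytes in meiotic arrest, differed by 0.50 ± 0.37 (SE) and Cyp19a1, aromatase, by 0.43 (95% interval -1.32 to 2.19). The intervals of Fshr (-1.07 to 0.36), Inha (-0.67 to 0.44), Inhba (-1.09 to 0.66), Hsd17b1 (-0.43 to 0.89) and Kitl (-1.30 to 1.79) all held 0, so that a difference of either sign is compatible with these libraries. The granulosa median was 0.11 without DEHP 200 replicate 2 and -0.27 without replicate 3.

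Theca cell genes had 9 of 14 lower and a median of -0.34, with 3 (21.4%) at an unadjusted p under 0.05, all lower, where 2.23% of all genes had such a p on the lower side. That count was 1 when replicate 2 of DEHP 200 was left out, and 0 when replicate 2 of DEHP 20 was, or with library weights. Ptch1, the hedgehog receptor, was at 7.62, 6.80 and 7.62 with DEHP 200 and 7.78, 8.0 and 7.72 with DEHP 20, without overlap. Gli2, a transcription factor of the same pathway, was at 5.0, 3.94 and 4.54 against 4.79, 5.65 and 4.91, and Hhip, a hedgehog-binding target, differed by -0.55 ± 0.39 (SE). For these 3 hedgehog genes replicate 2 of DEHP 200 was the lowest of the 6 libraries, and the median of the group was -0.05 without it and 0.06 with replicate 1 alone. Insl3, a peptide hormone of theca cells, differed by 0.85 ± 0.64 (SE), and Aldh1a1, a retinaldehyde dehydrogenase, by 0.31 ± 0.25 (SE) without overlap, higher in all 3 DEHP 200 libraries.

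Oocyte genes lay lower in 21 of 25, with a median of -0.19 and 0 at an unadjusted p under 0.05. Their mean level was 4.49, 3.94 and 5.22 with DEHP 200 and 4.35, 5.07 and 4.65 with DEHP 20. Replicate 2 of DEHP 200, the library highest in luteal genes, was the lowest of the 6 in 22 oocyte genes, and replicate 3, the library lowest in luteal genes, was the highest in 16. Bmp15, an oocyte growth factor, was at 5.33, 3.96 and 5.73 against 5.46, 5.98 and 5.60, with a 95% interval of the difference from -1.48 to 0.14. Gdf9, its partner, differed by -0.24 (-0.97 to 0.50). Kit, the receptor for Kit ligand on oocytes, was at 6.40, 5.48 and 7.13 against 5.21, 6.0 and 6.24, a difference of 0.52 ± 0.40 (SE). The group's median was 0.12 without DEHP 200 replicate 2 and -0.55 without replicate 3.

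Among the 13 ovulation and cumulus genes tested of 18 listed, 12 lay lower with a median of -0.27. Runx2, a transcription factor induced at ovulation, was at 6.57, 7.69 and 2.19 with DEHP 200 and 7.24, 7.56 and 6.80 with DEHP 20, so that its difference of -1.72 ± 0.88 (SE) came with 1 low library, replicate 3. Adamts1, a matrix protease of ovulating follicles, differed by -0.53 ± 0.36 (SE) and Ereg, an EGF-like ligand, by -0.54 ± 0.56 (SE). The median was -0.04 without DEHP 200 replicate 2 and 0.08 with replicate 1 as the only DEHP 200 library. Of 7 steroid hormone receptors 6 lay lower (median -0.09), with Esr1 at -0.29 (95% interval -0.78 to 0.19) and Esr2 at -0.27 (-1.13 to 0.59). The receptors' median turned to 0.17 when DEHP 200 replicate 2 was left out, to 0.10 with the transcript length trend described below removed (5 of the 7 have long transcripts) and to 0.06 with library weights.

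PPAR receptors and their target genes, the response known for this class of compound, had 13 of 22 higher and a median of 0.05. An unadjusted p under 0.05 was found for 2 (9.09%), both higher, where 1.72% of all genes had such a p on the higher side. Plin2, a coat protein of lipid droplets, was at 5.96, 6.21 and 6.22 with DEHP 200, 5.77, 5.65 and 5.70 with DEHP 20, and 5.94, 6.0 and 6.04 in the vehicle libraries. The DEHP 200 and vehicle libraries overlapped and the DEHP 20 libraries lay below both, a difference between doses of 0.43 ± 0.17 (SE, adjusted p = 0.945, limma, Benjamini-Hochberg). Acadl, a mitochondrial acyl-CoA dehydrogenase named after its values were seen, was at 7.16, 7.14 and 6.98 against 6.79, 6.89 and 6.95, with the vehicle libraries at 7.09, 7.09 and 7.16. Angptl4, a lipase inhibitor, also did not overlap (0.32 ± 0.31, SE). Ehhadh and Pdk4, other classical targets, lay on the opposite side at -0.36 ± 0.36 and -0.35 ± 0.41 (SE). The median of the group was 0.22 without DEHP 200 replicate 3 and stayed above 0 in each alternative (0.05 to 0.22).

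Genes of xenobiotic response were divided, with 9 of 19 higher and a median of -0.06. Abcb1b was at 7.67, 10.07 and 2.24 with DEHP 200 and 7.71, 6.71 and 8.29 with DEHP 20, with the highest and the lowest value both in the DEHP 200 group. Gsta4, a glutathione transferase that detoxifies lipid aldehydes and was chosen after its values were seen, differed by 0.82 ± 0.41 (SE), and Cyp1b1, a dioxin-receptor target, by -0.26 ± 0.27 (SE). Antioxidant genes had 11 of 21 higher and a median of 0.01. Single libraries set this sign too: 1 of 21 was higher without DEHP 200 replicate 2 (median -0.27) and 15 of 21 without replicate 3 (median 0.18). Keap1, the sensor that restrains NRF2, did not overlap, at 6.09, 6.20 and 6.20 against 6.03, 5.88 and 6.01, but the difference of 0.19 ± 0.09 (SE) had an adjusted p of 0.945 (limma, Benjamini-Hochberg).

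Collagen, laminin and other matrix genes were the group with the largest share at an unadjusted p under 0.05: 10 of 29 (34.5%), all lower, where 2.23% of all genes had such a p on the lower side. The count of 10 depended on single libraries: it was 2 when DEHP 200 replicate 3 was left out, 16 when DEHP 200 replicate 1 was, and 3 and 6 when DEHP 20 replicates 2 and 3 were in turn. It was 2 with the 6 libraries fitted alone and 0 with replicate 1 as the only DEHP 200 library. Of the 29 genes 28 lay lower, with a median of -0.33. The mean level was 7.88, 7.58 and 7.23 with DEHP 200, 7.88, 7.92 and 7.85 with DEHP 20, and 7.93 ± 0.07 (SD, n = 3) in the vehicle group. Replicate 1 of DEHP 200 was at the level of the DEHP 20 libraries, and replicates 2 and 3 lay below it. Fn1, fibronectin, was at 8.17, 7.53 and 7.31 against 8.23, 8.21 and 8.27. Nid1, nidogen of basement membranes, was at 8.46, 8.07 and 7.44 against 8.52, 8.58 and 8.55. Both did not overlap, as did Lamc1, a laminin chain, and Col1a1, a chain of type I collagen, although DEHP 200 replicate 1 lay within 0.1 of the nearest DEHP 20 library in each. Col12a1, a fibril-associated collagen, differed by -0.79 ± 0.37 (SE), Fbn1 by -0.63 ± 0.19 and Lama2 by -0.63 ± 0.22. Postn, periostin, was the exception at 0.52 ± 0.55 (SE). No matrix gene was called (smallest adjusted p = 0.945, limma, Benjamini-Hochberg). In the other dose contrasts 18 of the 29 lay lower at 3 months and 15 for DiNP.

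**Figure D4:**
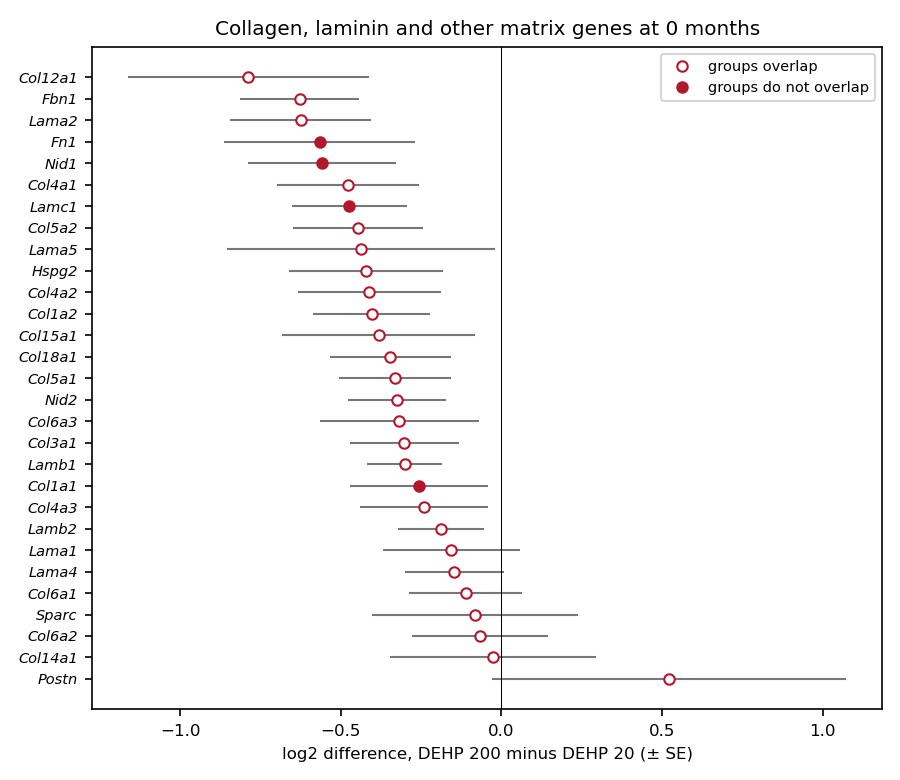
Difference in log2 CPM, DEHP 200 minus DEHP 20 (x axis, bars ± SE from limma), for 29 matrix genes (y axis), with filled points where the groups do not overlap. All but Postn lie below 0, and 4 of 29 are filled, where 3.07% of all genes tested did not overlap with DEHP 200 below.

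A wider pattern went with the matrix genes. Transcript length, taken as the longest annotated transcript, was known for 13818 genes (93.7%). The median difference between the doses was 0.10 in the quartile group of the shortest transcripts, 0.01 and -0.04 in the next quartile groups, and -0.16 in the longest, and the share of genes higher with DEHP 200 went from 72.5% in the shortest quartile group to 21.6% in the longest. By library, set against the vehicle mean, replicate 2 of DEHP 200 was at a median of 0.29 for the shortest and -0.31 for the longest quartile group, and replicate 3 at 0.09 and -0.16. Replicate 1, at -0.04 and 0.01, was like the DEHP 20 libraries, which ran from -0.05 to 0.06 in both quartile groups. Of the 29 matrix genes 26 were in the longest quartile group, as were 7 of the 8 genes with a known length among the 10 on the lower side. With the length trend of each library removed, 25 of 29 matrix genes lay lower, the median was -0.17 and 4 had an unadjusted p under 0.05. Without DEHP 200 replicate 3 the median was -0.14, and with replicate 1 as the only DEHP 200 library it was -0.04. Beyond this, the part of transcript length in these differences was not tested.

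**Figure D5:**
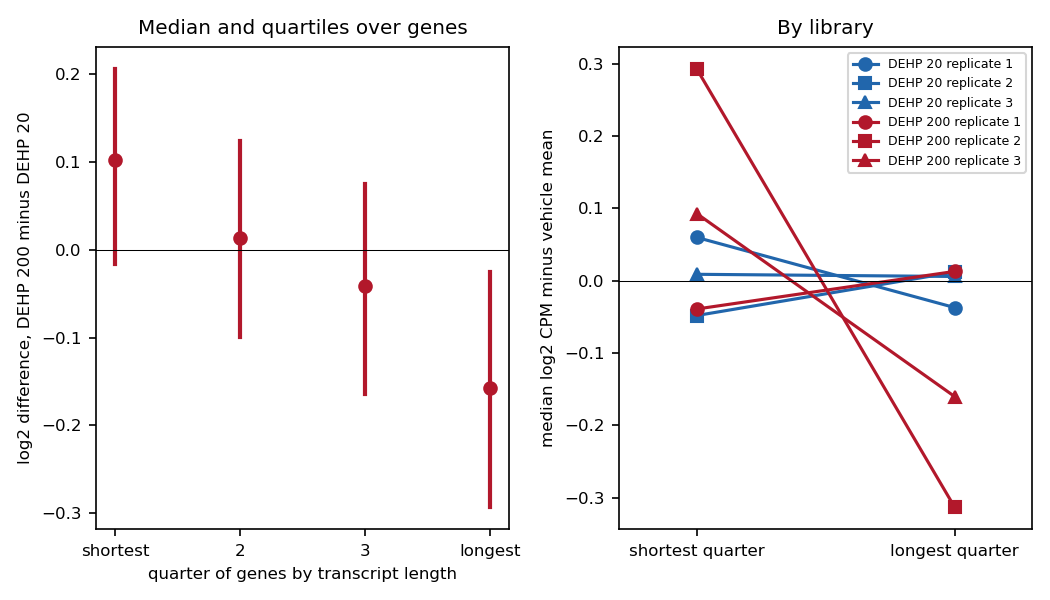
Left, median (point) and quartiles (bar) of the difference DEHP 200 minus DEHP 20 in log2 CPM (y axis) for genes in 4 quartile groups of transcript length (x axis). Right, median log2 CPM minus the vehicle mean in the shortest and the longest quartile group for each of the 6 libraries: DEHP 200 replicates 2 and 3 go from above 0 to below 0, at 0.29 and 0.09 for the shortest and -0.31 and -0.16 for the longest quartile group.

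Genes of short transcripts lay on the other side. All 35 cytosolic ribosomal protein genes tested were higher with DEHP 200, with a median of 0.17, 0 at an unadjusted p under 0.05 and 28 of the 35 in the shortest quartile group. Their mean level was 8.43, 8.76 and 8.88 with DEHP 200, 8.53, 8.48 and 8.50 with DEHP 20, and 8.47 ± 0.22 (SD, n = 3) in the vehicle group. Replicates 2 and 3 held the highest value in each of the 35 genes, while replicate 1 held the lowest in 19. Rpl35, of the large subunit, was at 8.17, 8.72 and 8.70 against 8.25, 8.21 and 8.15. With the length trend removed 27 of 35 lay higher (median 0.06), and with replicate 1 as the only DEHP 200 library 4 of 35 did (median -0.07). At 3 months 33 of the 35 lay lower, and for DiNP 32 lay higher (medians -0.10 and 0.13). Reads of these genes can be shared with near-identical processed pseudogenes. Subunits of oxidative phosphorylation had 23 of 28 higher and a median of 0.10, and the highest library was DEHP 200 replicate 2 in all 28, with Cox7b at 6.68, 7.26 and 6.11 against 6.92, 5.96 and 6.05. The median was -0.10 without that library and 0.001 without DEHP 20 replicate 2. With the length trend removed 18 of 28 lay higher with a median of 0.01, and 19 of the 28 are in the shortest quartile group. At 3 months 27 of the 28 lay lower, and for DiNP 24 lay higher.

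Immediate early genes, transcription factors induced within minutes of a stimulus, lay lower in 19 of 23, with a median of -0.42. An unadjusted p under 0.05 was found for 3 (13%), all lower, where 2.23% of all genes had such a p on the lower side. Their mean level was 4.36, 4.17 and 3.92 with DEHP 200, 4.50, 4.61 and 5.02 with DEHP 20, and 4.73 ± 0.30 (SD, n = 3) in the vehicle group, so that all 3 DEHP 200 libraries lay below all 3 DEHP 20 libraries. Fosb was at 1.84, -0.70 and -0.10 with DEHP 200 and 3.72, 2.64 and 3.29 with DEHP 20, a difference of -2.87 ± 1.38 (SE) without overlap. Nr4a1, an orphan nuclear receptor induced by luteinizing hormone, was at 4.43, 6.05 and 4.10 against 5.74, 6.83 and 6.57. Its relative Nr4a2, named after its values were seen, did not overlap at 2.30, 1.95 and 2.11 against 3.23, 2.59 and 2.32, and Nr4a3 differed by -1.06 ± 0.56 (SE). Jun differed by 0.26 ± 0.56 (SE), with DEHP 200 replicate 2 high at 8.04. Egr3 was low in DEHP 20 replicate 1 at 1.04 and high in the other 2 DEHP 20 libraries at 3.48 and 3.67. The median stayed below 0 in each alternative, between -0.51 and -0.18. The count of 3 was 0 with 1 weight per group or when replicate 3 of DEHP 200 was left out. It was 1 when replicate 2 of DEHP 200 or replicate 3 of DEHP 20 was left out. Against other dose contrasts, the median of these genes was -0.11 at 3 months and 0.10 for DiNP. At 3 months 17 of the 23 lay lower, and for DiNP 15 lay higher.

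Heat shock genes lay higher in 12 of 14, with a median of 0.23. At 3 months 12 of the 14 lay lower, and for DiNP all 14 lay higher. Hspa1b, an inducible HSP70, was at 6.10, 8.51 and 5.96 with DEHP 200, 6.28, 5.67 and 5.12 with DEHP 20, and 7.33, 8.49 and 7.32 in the vehicle libraries. Only replicate 2 of DEHP 200 reached the vehicle level, and the median was -0.03 without it. Genes of the unfolded protein response were divided (9 of 22 higher, median -0.06), and set against the shared vehicle libraries the median was -0.39 for DEHP 200 and -0.39 for DEHP 20. Hyou1, a chaperone of the endoplasmic reticulum, differed by -0.29 ± 0.22 (SE) and Ddit3, which encodes CHOP, by 0.45 ± 0.52 (SE), each without overlap.

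Interferon-stimulated genes lay lower in 21 of 22, with a median of -0.23 and 0 at an unadjusted p under 0.05. Their mean level was 2.39, 2.94 and 2.76 with DEHP 200 and 3.40, 2.34 and 3.14 with DEHP 20, against 2.11 ± 0.24 (SD, n = 3) in the vehicle group, so that both dosed groups had a higher mean than the vehicle. The DEHP 20 libraries spanned the DEHP 200 ones: 13 genes had their highest value in DEHP 20 replicate 1 and 13 their lowest in DEHP 20 replicate 2. Isg15, a ubiquitin-like modifier, was at 0.46, 1.89 and 0.91 against 2.40, 0.76 and 1.88. Cxcl10, a chemokine, was at -0.17, 0.93 and 1.27 against 2.78, -0.29 and 1.52. Leaving out DEHP 20 replicate 1 gave a median of -0.03, and leaving out DEHP 20 replicate 2 gave -0.54, where all 22 lay lower and 2 had an unadjusted p under 0.05.

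Of the remaining groups, cell cycle genes lay lower in 25 of 30 (median -0.15), among them Mki67, a marker of dividing cells, at 6.82, 6.12 and 7.16 against 7.27, 7.03 and 7.12, and Mcm4, a replication helicase subunit, at -0.36 ± 0.17 (SE). With replicate 2 of DEHP 200 left out the median was -0.03, and with replicate 1 of DEHP 20 left out it was -0.05. It was -0.32 without replicate 3 of DEHP 200, with 3 genes at an unadjusted p under 0.05, and -0.23 without replicate 2 of DEHP 20. DNA methylation genes lay lower in 10 of 11 (median -0.25), and 8 of the 11 were lowest in DEHP 200 replicate 2. Dnmt1, the maintenance methyltransferase, was at 7.46, 6.81 and 7.72 against 7.65, 7.75 and 7.60, and Tet1, which oxidizes methylcytosine, at 5.22, 4.12 and 5.18 against 5.25, 5.55 and 5.32. In both genes replicate 2 alone lay far from the DEHP 20 libraries, and the group's median was -0.05 without it. PI3K and Foxo3 genes of follicle activation (9 of 22 higher, median -0.10, with Foxo1 at -0.33 ± 0.30, SE), BCL2 family genes (7 of 14 higher, median -0.003, with Bcl2l11 at -0.58 ± 0.28, SE) and circadian clock genes (8 of 19 higher, median -0.06, with Rora at -0.54 ± 0.67, SE) lay near the median of all genes.

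Markers of other cells that an ovary can carry were read in the same way. Macrophage markers were divided, with 9 of 19 higher. Their summed levels were 450.7 to 525.2 CPM with DEHP 200 and 383.5 to 425.4 CPM with DEHP 20, which did not overlap. Their mean log2 levels did overlap, at 3.77, 3.93 and 3.49 against 3.84, 3.61 and 3.68. Of the 19 markers, 2 had DEHP 200 above without overlap and 1 below, where 4.06% and 3.07% of all genes did. Lyz2, lysozyme, had the highest mean level of the list and so the most weight in the sums. It was at 7.35, 7.43 and 7.56 against 6.62, 6.67 and 6.44, and Cd68, a lysosomal protein of macrophages, at 3.86, 4.15 and 3.99 against 3.15, 3.81 and 3.35, both without overlap. Adgre1, a surface protein of mature macrophages, went the other way at 4.09, 3.45 and 2.53 against 4.43, 3.78 and 4.13, and Csf1r, the receptor for the macrophage growth factor, differed by -0.07 ± 0.26 (SE). The macrophage list as a whole had a median of -0.02.

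Adipocyte markers had 6 of 7 tested higher with a median of 1.90, but their levels crossed the groups. The median ran from 0.92 without DEHP 200 replicate 3 to 2.92 without DEHP 20 replicate 2, and was 0.17 over the 5 genes with a mean log2 CPM above 2. Adipoq, adiponectin, was at 3.06, 0.15 and 4.96 with DEHP 200 and -0.82, 3.18 and -1.0 with DEHP 20, high in 2 libraries of one dose and 1 of the other. The summed level ran from 390.8 to 917.7 CPM with DEHP 200 and from 410.4 to 840.3 CPM with DEHP 20. Fabp4, a fatty acid carrier listed with both the adipocyte and the PPAR genes, was at 4.14, 2.15 and 6.06 against 1.63, 4.26 and 0.77, the same order of libraries. The part of adipose tissue in the PPAR group was not tested. Oviduct markers had 8 of 9 tested higher (median 0.42), with Foxj1, the regulator of motile cilia, at 1.59, -0.65 and 2.27 against 0.64, -0.72 and -1.86, and Ovgp1, oviductal glycoprotein, at 2.42, 0.44 and 3.10 against 1.89, 1.38 and 0.18. Their summed level was 42.6 to 67.5 CPM with DEHP 200 and 37.8 to 44.6 CPM with DEHP 20.

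Endothelial markers had 7 of 16 higher (median -0.07). Cdh5, the cadherin of endothelial junctions, was at 6.72, 6.52 and 6.04 against 7.04, 6.96 and 6.94 without overlap, and so lay on the same side as Nos3, whereas Cldn5, a tight junction protein, did not overlap on the other side (0.24 ± 0.21, SE). Smooth muscle markers had 6 of 11 higher (median 0.05), and markers of the surface epithelium 7 of 14 (median 0.07). Krt19, a keratin, was at 4.03, 4.07 and 4.25 against 2.96, 3.94 and 3.93. It was the only 1 of these 14 without overlap, where 4.06% of all genes had DEHP 200 above in this way. Lgr5, with the largest difference of the list (-0.98), went the other way, at means of 4.64 against 5.62. Of 12 lymphocyte markers 2 passed the filter and of 9 neutrophil markers 1, with summed levels of 10.1 to 11.1 and 1.27 to 1.79 CPM with DEHP 200. Hbb-bs, a beta globin of red cells, was at -2.42, -2.25 and 4.23 against 6.52, -0.83 and 4.08, high and low within either dose. Hba-a1, an alpha globin, ranged only from 5.26 to 7.08 over the same 6 libraries, and Alas2, the heme synthesis enzyme of red cells, from 1.59 to 2.47. Globin genes have near-identical copies, so their levels are uncertain. Of the 9 skeletal muscle and 11 exocrine pancreas markers 2 each were tested, with medians of 0.09 and -0.44. The part of these cells in the differences between doses was not tested.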

How the data were processed

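The authors deposited 1 table of log2 CPM for 18022 genes and 30 libraries (stranded TruSeq mRNA, single reads, per the labels' protocols). The submitters' processing notes name FastQC 0.11.8, Salmon 0.11.3, edgeR, R 3.5.2 and GRCm38.p6. Only 8.48 to 20.5% of low values fell on whole reads (tolerance 0.03), so counts could not be recovered, and depths of 24.7 to 41.8 M reads (M, 1e+06) are approximate. Each depth was the best match among many tried and may not be a total of reads.

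For the 14740 genes whose log2 CPM averaged above 0, group means were estimated in limma 3.58.1 under R 4.3.3 from all 30 libraries, leaving 20 residual degrees of freedom, with a prior variance that follows the mean level. p-values are two-sided and Benjamini-Hochberg adjusted over all genes of a comparison. The fit was also run on simulated data, with independent noise of the same SD in all groups. The DEHP 200 libraries spread more widely than that, so the run does not bear on their spread. An exact permutation test of 3 against 3 libraries cannot go below 0.1, so none is given.

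Named are the 10 genes of smallest p in each direction, 16 reproductive genes, up to 4 members of each list with and 2 against its median, and the smallest p of each interaction. The members and lists were chosen with earlier results of these data known. Marker genes and others outside the rule are examples. Transcript lengths and gene positions come from annotations of GRCm38 (GENCODE and RefSeq), promoters from RefSeq.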

Additional observations from a re-analysis of the deposited data

How the results depend on the processing

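The count of genes called was 0 in the fit reported and 1 in 4 alternatives: with a threshold of adjusted p under 0.10, without the mean-dependent prior (adjusted p 0.0234) and with library weights (0.0254) it was Foxa3, and with DEHP 200 replicates 2 and 3 both left out, an alternative added after seeing the data that leaves 1 library, it was Ing1 (1.06 ± 0.16, SE, adjusted p = 0.0206, limma, Benjamini-Hochberg), the lone library being assumed to vary like the other groups. The library weights were uneven, from 0.005 for DiNP 100 replicate 1 to 35.131 for vehicle replicate 2, both at 3 months. Among the 6 libraries compared they ran from 0.237 (DEHP 200 replicate 2) to 3.869 (DEHP 20 replicate 3). Both interaction counts were 0 in each alternative run.

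The count at an unadjusted p under 0.05 was 582, and 442 to 1527 when 1 library was left out, 1590 with the luteal mean as a covariate, 298 with the 6 libraries alone and 138 without DEHP 200 replicates 2 and 3. The cause of these changes was not tested, and the last 2 fits also used fewer samples. Median centring gave 328 higher and 224 lower, and quantile normalization 388 and 214, against 253 and 329 as reported. Removing the length trend gave 335 and 150, and 1 weight per group gave 151 and 241 (392 in all), both also added later. With the replicate number as a replicate block 515 genes had such a p and 0 were called. The deviations of same-numbered libraries of the 2 doses correlated at -0.288, -0.324 and -0.143. With 3 libraries per group, these values cannot decide whether the numbers pair the samples. List medians were not stable in sign: 23 of 33 changed sign in at least 1 alternative, 78 times in all, the luteal median between -1.06 and 0.38, although 571 of the moves were smaller than the wide spread between replicates and 20 larger.

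Foxa3 kept its sign in each alternative that tested it (1.04 to 1.81), with adjusted p from 0.0234 to 0.996 (limma, Benjamini-Hochberg). It was not tested among genes with a mean log2 CPM above 2. Its mean of -0.02 with DEHP 20 lay near the limit of 0 log2 CPM. With 3 libraries per group and no read counts, wide intervals, such as that of Star (-3.87 to 1.78), set what could be detected.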
